A study of Mus musculus with 11 samples.

Results

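Ovulated control oocytes, which wait at second metaphase (MII) for the sperm, were compared with control 2-cell embryos, so that the change from maternal to zygotic transcripts could be followed gene by gene. The 3 control oocyte and 3 control embryo libraries were chosen by their labels, as 6 of the 11 libraries of the series, and all 24421 genes of the table were considered. The females of both groups carried floxed Daxx alleles without Cre, had mixed C57BL/6J and 129/Sv ancestry, and were aged 8 weeks, with hormone doses of 5 IU. Each library held 1 pool of 50 oocytes or 50 embryos taken from 2 to 3 females. Oocytes were collected 20 hours after hCG. Embryos were made by in vitro fertilisation with sperm of JF1 males and collected 33 hours after fertilisation, so that they also carry a paternal genome of another strain. The remaining libraries came from females in which a Cre driven by the Zp3 promoter deletes Daxx in growing oocytes, and a first replicate of the knockout embryos was not analysed here.

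The full-grown oocyte has stopped transcribing and lives on stored messenger RNA that is held inactive, polyadenylated for translation or degraded in a set order. After fertilisation the maternal store is cleared while the zygotic genome is switched on, in mice with a main wave at the 2-cell stage. Some genes, several of them near retrotransposons of the MERVL family, are transcribed for this stage alone.

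Oocyte libraries held 32582998 to 39798586 counted reads and embryo libraries 17978192 to 23033566. The unit of level is CPM (counts per 1000000 counted reads of the library), so that levels are shares of the reads rather than amounts per oocyte or embryo. Changes are log2 differences of embryos from oocytes with the standard error (SE), and a gene is said to have risen or fallen where the edgeR p-value adjusted over all 15577 genes tested was under 0.05. These p-values measure the spread between pools. The oocyte pools were alike, with a median coefficient of biological variation of 0.070 over 7946 genes, against 0.148 over 8330 genes in the embryo pools. Lars2, a gene known to collect reads of ribosomal RNA, took 0.147% to 0.201% of the reads in oocytes and 0.482%, 1.85% and 0.871% in embryo replicates 1, 2 and 3. A read count cannot tell a newly made transcript from one carried over from the oocyte.

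Promoter sequences are shown first for genes that stand for the main patterns described here. They are the 250 bases before the most upstream RefSeq start of each gene (GRCm38.p6), written 5′ to 3′ on the gene's strand. Zp3 encodes a coat protein of the oocyte and H1f8 its linker histone, and both fell. Capitals mark CAGGTG, an E-box of the form bound by basic helix-loop-helix proteins, and in H1f8 also CCAAT (as ATTGG on the other strand), the motif of the trimer NFY.
Zp3 chr5:135979855-135980104, plus strand: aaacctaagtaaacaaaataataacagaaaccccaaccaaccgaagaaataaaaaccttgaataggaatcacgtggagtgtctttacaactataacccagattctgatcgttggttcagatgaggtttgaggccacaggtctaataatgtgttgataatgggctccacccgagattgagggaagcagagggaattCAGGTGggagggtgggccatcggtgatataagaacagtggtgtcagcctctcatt
H1f8 chr6:115944681-115944930, plus strand: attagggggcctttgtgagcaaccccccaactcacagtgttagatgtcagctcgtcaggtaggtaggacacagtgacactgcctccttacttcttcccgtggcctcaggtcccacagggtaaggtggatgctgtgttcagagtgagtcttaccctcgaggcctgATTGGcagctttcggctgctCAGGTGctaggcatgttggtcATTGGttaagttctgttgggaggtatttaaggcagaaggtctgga
The marked CAGGTG lies 55 bases before the start in Zp3 and 66 bases before it in H1f8. Farther from the start, the Zp3 sequence also holds CACGTG, another form of E-box, which is left in lower case. CAGGTG occurred on either strand in 19.6% of the 18281 promoters matched to genes of the table, searched over 300 bases each (250 before the start and 50 after it). Among 14 promoters of the subcortical maternal complex and Nlrp genes described with the maternal transcripts, the share was 42.9%.

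The zinc finger gene Zfp352, which had no read in oocytes and 290 CPM in embryos, has a start region built of a short tandem repeat. Capitals mark TAATCC, a motif bound by homeobox proteins of the OTX and OBOX type.
Zfp352 chr4:90218570-90218819, plus strand: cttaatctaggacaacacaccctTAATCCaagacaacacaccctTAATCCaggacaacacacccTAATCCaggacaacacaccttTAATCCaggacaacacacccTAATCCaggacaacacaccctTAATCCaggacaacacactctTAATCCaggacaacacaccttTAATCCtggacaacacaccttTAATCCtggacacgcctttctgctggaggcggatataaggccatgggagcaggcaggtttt
The motif occurs 9 times at a spacing of 20 to 21 bases, from 227 to 61 bases before the start. Of the 18281 promoters, 6.58% held it at least once, 63 at least 2 times, 6 at least 3 times, and Zfp352 was the 1 promoter with 9. Zscan4c and Zscan4d are neighbouring copies of a gene known for bursts of expression in 2-cell embryos. Capitals in their promoters mark the TATA box (TATAAA), the NFY motif (CCAAT) and TGACCTTG, which is CAAGGTCA of NR5A2 read on the other strand. The last was held by 1.27% of the 18281 promoters.
Zscan4c chr7:11005495-11005744, plus strand: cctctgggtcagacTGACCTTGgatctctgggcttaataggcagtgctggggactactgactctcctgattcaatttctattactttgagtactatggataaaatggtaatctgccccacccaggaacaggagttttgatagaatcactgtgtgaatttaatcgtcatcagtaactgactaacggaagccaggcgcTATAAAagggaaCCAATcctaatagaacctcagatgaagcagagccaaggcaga
Zscan4d chr7:11166149-11166398, minus strand: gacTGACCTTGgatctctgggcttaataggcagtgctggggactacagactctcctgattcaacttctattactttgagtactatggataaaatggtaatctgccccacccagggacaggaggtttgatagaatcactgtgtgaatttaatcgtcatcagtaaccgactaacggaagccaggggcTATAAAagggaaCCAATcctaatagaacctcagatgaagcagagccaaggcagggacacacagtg
The 2 sequences are 97.1% identical over 239 bases at an offset of 11 bases, and each motif keeps its order and spacing.

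A histone gene and a gene of ribosome assembly represent the housekeeping groups that rose. H3c11 encodes a histone H3 of S phase, and capitals mark TATAAA and CCAAT. The marked TATAAA lies 147 bases before the start, farther out than the CCAAT copies at 97 and 56 bases. Nop2 encodes an RNA methyltransferase of the nucleolus, and capitals mark CACGTG, the E-box of MYC, and CCGGAAG, the motif of ETS factors such as GABPA.
H3c11 chr13:21783398-21783647, minus strand: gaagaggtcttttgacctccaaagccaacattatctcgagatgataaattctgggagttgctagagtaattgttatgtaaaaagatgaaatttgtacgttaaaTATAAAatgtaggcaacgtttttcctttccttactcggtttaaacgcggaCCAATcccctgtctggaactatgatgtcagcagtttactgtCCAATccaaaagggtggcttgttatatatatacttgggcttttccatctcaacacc
Nop2 chr6:125131633-125131882, plus strand: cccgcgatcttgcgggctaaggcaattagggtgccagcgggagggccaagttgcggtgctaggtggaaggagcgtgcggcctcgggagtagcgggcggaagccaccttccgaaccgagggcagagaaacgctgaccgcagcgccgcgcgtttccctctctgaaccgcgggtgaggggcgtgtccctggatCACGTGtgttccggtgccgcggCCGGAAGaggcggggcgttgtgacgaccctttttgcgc
CCAAT was found in 83.0% and TATAAA in 59.6% of 47 promoters of core histone genes, against 39.2% and 13% of all 18281. CCGGAAG was found in 44.7% and CACGTG in 17.6% of 85 promoters of ribosome assembly genes, against 11.9% and 8.2%. Among the 12227 promoters of tested genes alone, the shares were 39.3% for CCAAT, 8.1% for TATAAA, 16.3% for CCGGAAG and 9.87% for CACGTG. These are matches of letters on either strand and do not show binding.

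Most genes changed their share of the reads between the stages. Of 15577 genes tested, 12939 (83.1%) passed, of which 6708 (43.1%) were higher in embryos and 6231 (40.0%) lower. For 13241 of the tested genes (85.0%) the oocyte and embryo libraries did not overlap in CPM. Such separation was thus the usual case and does not set a named gene apart. The rises went further than the falls. At least 2-fold changes were 5139 rises (33.0%) and 4437 falls (28.5%), at least 8-fold changes 2659 and 671, and at least 64-fold changes 859 and 2, where genes with no read in one group are counted at the lower bound that 3 reads over that group allow. The median log2 change of all tested genes was 0.07, and their median absolute change was 1.41. Genes without any read in the 3 oocyte libraries numbered 5634, of which 339 reached a mean of 1 CPM and 58 a mean of 10 CPM in embryos. Conversely 3726 genes had no read in the 3 embryo libraries, and 0 of these reached 1 CPM in oocytes.

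**Figure D1:**
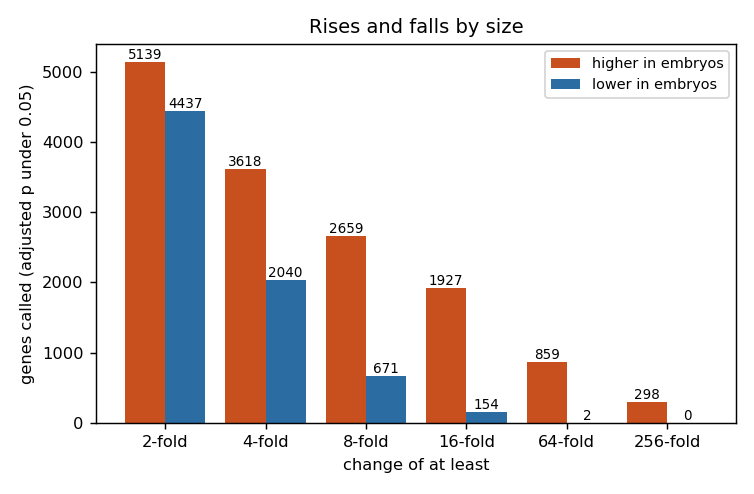
Number of genes called higher or lower in control embryos (vertical axis, genes with adjusted p under 0.05) by the smallest fold change they reached (horizontal axis), with genes lacking reads in one group placed at their bound. Rises and falls are nearly as many at 2-fold (5139 and 4437), whereas at 16-fold there are 1927 rises and 154 falls.

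The read pool turned over accordingly. Genes that rose took 24.1 ± 0.171% of the reads in oocytes and 62.3 ± 0.725% in embryos (SD, n = 3), and genes that fell went from 63.7 ± 0.216% to 25.2 ± 0.659%. Of the 2487 genes at or above 100 CPM in oocytes, 972 fell at least 2-fold and 213 rose at least 2-fold. Of the 2439 genes at that level in embryos, 910 had risen at least 2-fold, and 1557 genes were at that level in both. The 10 most abundant genes together took 4.32 ± 0.027% of the oocyte reads and 4.68 ± 0.857% of the embryo reads. Genes at or above 1 CPM numbered 12062 to 12108 in the oocyte libraries and 13426 to 13631 in the embryo libraries.

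**Figure D2:**
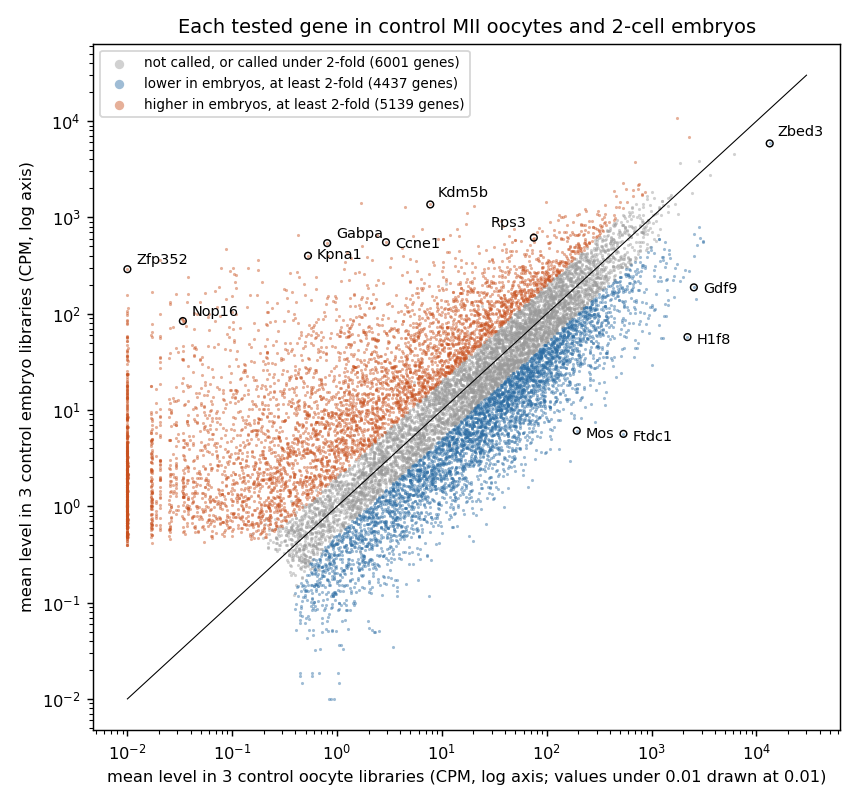
Mean level of each tested gene in control oocytes (horizontal axis) and control embryos (vertical axis), both in CPM on log axes, with values under 0.01 drawn at 0.01 and the line marking equal levels. Genes that rose spread from the line up to Zfp352, which had no oocyte read and 290 CPM in embryos, while genes that fell, such as Gdf9 (2529 to 188 CPM), lie nearer to the line.

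Transcripts that define the oocyte fell together. Of 27 tested genes of oocyte identity, 24 fell and 2 rose, with a median log2 of -2.33, and the list went from 2.10% to 0.713% of the reads. Gdf9, a growth factor by which the oocyte signals to its follicle, stood at 2598, 2462 and 2526 CPM in the oocyte libraries and at 167, 207 and 190 CPM in the embryo libraries (log2 -3.78, SE 0.10, edgeR adjusted p = 4.2e-11). Bmp15, its X-linked relative, fell from 3066, 3013 and 3144 to 610, 591 and 492 CPM (log2 -2.47, SE 0.11). Both genes thus separated the stages with little spread inside a group, and Gdf9 kept the smaller part of its level.

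The genes of the egg coat fell to unequal degrees. Zp1 went from a mean of 521 to 43.1 CPM (log2 -3.62, SE 0.11), Zp2 from 710 to 140 CPM (-2.36, SE 0.11) and Zp3 from 238 to 51.0 CPM (-2.25, SE 0.12). Nobox, a homeobox activator of oocyte genes, fell from 341 to 27.0 CPM (-3.68, SE 0.11). For these 4 genes every oocyte library was above every embryo library. The steepest fall in the list was that of Oosp2, an oocyte-secreted protein, from 127 to 7.96 CPM (-4.02). Not all oocyte genes followed. Omt2a, an oocyte transcript of undescribed function, rose from 302, 325 and 307 to 1212, 1150 and 1099 CPM (log2 1.87, SE 0.09), and its neighbour Omt2b rose from 454, 473 and 441 to 1172, 1438 and 1206 CPM (1.46, SE 0.10). Their oocyte and embryo values did not overlap. Oog3 stood at 917 and 937 CPM and did not pass (edgeR adjusted p = 0.97, 95% interval of the log2 change from -0.25 to 0.26).

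The subcortical maternal complex, a protein assembly under the oocyte membrane needed for the first cleavages, and the oocyte Nlrp genes listed with it fell: 15 of 15 tested members were lower, by at least 2-fold each, with a median log2 of -2.41. Their summed share of the reads was 2.86% to 2.94% in oocytes and 0.745% to 0.913% in embryos. Padi6 fell from 2652, 2536 and 2711 to 118, 166 and 145 CPM (log2 -4.23, SE 0.13). The core subunits Tle6 and Ooep fell from 1180 to 76.5 CPM (-3.97) and from 944 to 63.7 CPM (-3.92). The list was uneven at its other end. Zbed3, the most abundant member, fell from 13104, 13875 and 13147 to 5999, 6293 and 5307 CPM (log2 -1.21, SE 0.10), which per length is 5045 and then 2213 RPKM (CPM per kilobase of transcript).

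Several gene families of oocytes fell as a block, a view chosen after their values were seen. All 14 tested Fbxw genes of the oocyte type fell (summed level 4031 to 476 CPM), as did all 6 tested Oas1 genes (3168 to 305 CPM), of the oligoadenylate synthetase family. Of all 15 tested Nlrp genes 12 fell and 3 rose. Single copies in such families are near-identical, and their separate values are uncertain.

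Proteins that store, translate and destroy maternal messenger RNA went both ways. Of 52 tested genes 26 fell (50.0%, against 40.0% of all tested genes) and 21 rose (40.4%, against 43.1%), with a median log2 of -0.18. Among the falls were RNA-binding proteins of oocytes. Pabpn1l, a nuclear-type poly(A) binding protein of oocytes, went from 164, 161 and 171 to 3.00, 3.29 and 2.65 CPM (log2 -5.82, SE 0.13), Zar1 from 691, 681 and 654 to 28.6, 42.3 and 35.9 CPM (-4.27, SE 0.13), and Dazl from 374 to 39 CPM (-3.28). Among the rises were factors of general RNA turnover. Tut4, a terminal uridylyltransferase, rose from 0.366 to 41.1 CPM (6.81, SE 0.30), Zfp36, which binds AU-rich elements, from 0.113 to 12.5 CPM (6.76), and Tob1, which recruits the deadenylase, from 34.9 to 249 CPM (2.81). Of 11 tested subunits of the CCR4-NOT deadenylase 7 fell and 3 rose, within 2-fold for every rise. Btg4, the oocyte adaptor of that enzyme, was lower but remained abundant, at 1790 CPM in oocytes and 1075 CPM in embryos (-0.76, SE 0.13).

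Genes of meiotic arrest and division changed in both directions. Among 80 tested genes of this list, 35 fell (43.8%) and 31 rose (38.8%), with a median log2 of -0.04. These shares are near those of all tested genes, 40.0% lower and 43.1% higher. Mos, the kinase that holds the egg at MII, fell from 214, 180 and 185 to 8.07, 5.75 and 4.47 CPM (log2 -5.02, SE 0.19), and the checkpoint kinase Bub1b fell from 1217, 1203 and 1234 to 53.6, 58.4 and 56.4 CPM (-4.46, SE 0.09). Cyclin genes moved apart: Ccnb1 fell from 357 to 121 CPM (-1.58, SE 0.08), whereas Ccna2 rose from 232 to 826 CPM (1.81, SE 0.08). Ccne1, the cyclin of S phase entry, stood at 2.85, 3.14 and 2.79 CPM in oocytes and at 500, 578 and 581 CPM in embryos (7.53, SE 0.12). Wee2, an oocyte inhibitor of CDK1, did not pass, at 869 and 776 CPM (edgeR adjusted p = 0.10), though it did without embryo replicate 2 (log2 -0.31).

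Other deep falls lay outside these lists. The largest among genes of at least 10 CPM was that of Ftdc1, a ferritin domain gene, from 524, 568 and 523 to 8.40, 4.39 and 4.17 CPM (log2 -6.61, SE 0.24). Rgs2, a regulator of G-protein signalling, fell from 957, 1043 and 1005 to 34.5, 30.9 and 21.6 CPM (-5.13, SE 0.17). The thiol enzyme gene Glrx fell from 289 to 7.46 CPM (-5.30, SE 0.15), and Nfkbiz, a nuclear inhibitor of NF-kappa-B, from 131 to 3.93 CPM (-5.09, SE 0.15). The largest falls were drawn from genes, leaving out predicted ones, whose oocyte and embryo libraries do not overlap. The separation of such genes was thus fixed by the rule.

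**Figure D3:**
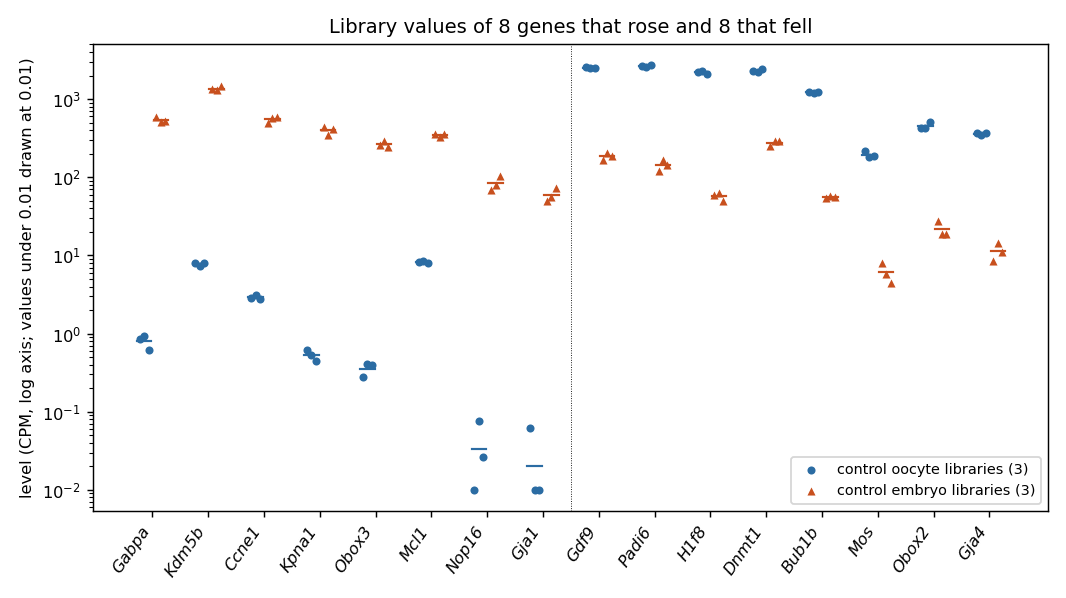
Level of 8 genes that rose (left) and 8 that fell (right) in each control library, in CPM on a log axis; short lines mark group means and values under 0.01 are drawn at 0.01. For all 16 genes the 3 oocyte points and the 3 embryo points form separate groups, and the spread inside a group is small beside the distance between them. The 16 genes were picked as examples with their changes known, and 85.0% of all tested genes separated in this way.

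On the embryo side, the genes known to be transient at the 2-cell stage led the rises. Of 37 tested members 33 rose and 3 fell, with a median log2 of 7.60, or 7.56 when the 10 members with no oocyte read are placed at their bound. Ubtfl1, a single-exon gene of the UBTF family, had 2 reads over the 3 oocyte libraries and 392, 363 and 335 CPM in embryos, which is 19984 times as high (95% counting interval 5532 to 165028). Prmt6, an arginine methyltransferase of histones, rose from 0.368, 0.151 and 0.130 to 113, 159 and 126 CPM (log2 9.26, SE 0.26). The de-ubiquitinase gene Usp17lb rose from 0.153, 0 and 0.0781 to 72.0, 117 and 97.0 CPM (10.25, SE 0.37). All 3 genes were near absent from oocytes and high in every embryo pool.

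The Zscan4 copies whose promoters are shown were not silent in oocytes. Zscan4d stood at 2.36, 1.58 and 1.41 CPM there and at 57.5, 84.7 and 50.8 CPM in embryos (log2 5.16, SE 0.25). Zscan4c stood at 0.430, 0.754 and 0.833 CPM and then at 24.0, 19.2 and 12 CPM (4.72, SE 0.32). All 4 coding copies in the family search (summed level 2.70 to 116 CPM) rose. The Tdpoz genes, a cluster of ubiquitin ligase adaptors, went from a summed 0.105 to 246 CPM with 7 of 7 higher, and the 5 Usp17l genes from 0.491 to 152 CPM with 5 of 5 higher. Of 31 tested Pramel genes, by contrast, 17 rose and 9 fell, and their summed level decreased from 4993 to 2163 CPM. Pramel13 was one of the 3 members of the transient list that fell, from 750, 770 and 796 to 190, 224 and 213 CPM (-1.91, SE 0.09); the others were Arg2, an arginase, from 240 to 71.6 CPM, and Sp110, from 217 to 116 CPM.

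The Obox homeobox family changed its composition. Obox3 rose from 0.276, 0.402 and 0.390 to 258, 291 and 243 CPM (log2 9.47, SE 0.17), and Obox6 from 0.0614, 0.201 and 0.312 to 196, 222 and 229 CPM (10.03, SE 0.23). Obox2 fell from 427, 426 and 510 to 27.9, 18.9 and 18.8 CPM (-4.40, SE 0.17), Obox1 from 545 to 76.0 CPM (-2.86), Obox7 from 162 to 20.2 CPM (-3.03) and Obox5 from 911 to 476 CPM (-0.96). Thus 4 members with ample oocyte transcripts fell and the 2 that were near 0 in oocytes rose, so that the summed level of the 6 went from 2073 to 1074 CPM. These genes are near-identical in parts, and their split between copies is uncertain.

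Regulators linked with genome activation, a list that includes the 6 Obox genes, mostly rose, 28 of 39 tested with 8 falls and a median log2 of 1.02. Gabpa, an ETS factor whose motif is capitalised in the Nop2 promoter, rose from 0.859, 0.930 and 0.625 to 591, 507 and 526 CPM (log2 9.36, SE 0.16). Its partner subunits also rose, Gabpb2 from 8.95 to 118 CPM (3.69, SE 0.15) and Gabpb1 from 72.1 to 152 CPM (1.05, SE 0.12). Kdm5b, a demethylase of histone H3 lysine 4, rose from 8.07, 7.26 and 7.89 to 1344, 1298 and 1448 CPM (7.43, SE 0.11). All 3 subunit genes and Kdm5b were lower in every oocyte library than in any embryo library. Klf5 rose from 0.401 to 91.2 CPM (7.80), Yy1 from 7.45 to 260 CPM (5.10) and Nr5a2, an orphan nuclear receptor, from 64.7 to 281 CPM (2.09). Nfya, the DNA-contacting subunit of NFY, was among the falls, from 674, 661 and 698 to 122, 120 and 108 CPM (-2.56, SE 0.09), while Nfyb rose from 13 to 87.7 CPM (2.73). Dppa3 at 615 and 653 CPM and Pou5f1 at 152 and 137 CPM did not pass.

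Genes of the first lineages rose in 25 of 38 tested cases and fell in 7 (median log2 1.03). Fgf4, the growth factor of the inner cell mass, had no read in oocytes and 31.1, 28.7 and 49.6 CPM in embryos, at least 1382-fold higher. Tead4, a factor needed for trophectoderm, rose from 0.184, 0.0754 and 0.0521 to 45.6, 40.5 and 67.8 CPM (log2 8.92, SE 0.33). Nanog was low, with no oocyte read and 2.20 CPM in embryos. The lineage markers Cdx2, Sox17 and Elf5 were too low to be tested, and Gata3 fell from 21.6 to 2.96 CPM (-2.90).

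Genes of ribosome production mostly rose. Of 97 tested factors of the nucleolus and ribosome assembly, 70 rose and 13 fell, with a median log2 of 1.18, and their share went from 0.986% to 1.55% of the reads. Nop2, shown above, rose from 4.36, 4.95 and 4.76 to 246, 247 and 311 CPM (log2 5.81, SE 0.13). Nop16 rose from 0, 0.0754 and 0.0260 to 67.9, 79.4 and 105 CPM (10.99, SE 0.33), Mak16 from 0.429 to 240 CPM (9.08) and Nol11 from 1.87, 1.91 and 1.12 to 297, 243 and 270 CPM (7.35, SE 0.18). These 4 genes were low in every oocyte library and well read in every embryo library. Ubtf and Taf1d, which serve RNA polymerase I, rose from 19.3 to 217 CPM (3.47) and from 43.9 to 640 CPM (3.84). Among the falls were the GTPase Bms1, from 841 to 101 CPM (-3.08, SE 0.10), and the kinase Riok1, from 777 to 104 CPM (-2.92). Nucleolin (Ncl) did not pass, at 845 and 798 CPM.

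Proteins of the cytosolic ribosome followed, with 69 of 85 tested genes higher and 7 lower (median log2 1.5, 0.136% to 0.379% of the reads). Rps3 rose from 69.8, 79.6 and 76.3 to 523, 664 and 663 CPM (log2 3.01, SE 0.11). Tissue-restricted copies rose as well: Rpl10l went from 0.698 to 53.9 CPM (6.24, SE 0.19), and Rpl3l had no oocyte read and 8.16 CPM in embryos, at least 305-fold higher. Rpl32 was the strongest exception, from 112 to 48.8 CPM (-1.23). Ribosomal protein genes have many near-identical processed copies in the genome, so that single values are uncertain.

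Small nucleolar RNAs, which guide the modification of ribosomal RNA, rose in every tested case, a count made after their values were seen. All 58 tested C/D box and all 33 H/ACA box genes were higher, with median log2 changes of 2.92 and 2.91. The summed C/D level was 560, 627 and 598 CPM in oocytes and 2658, 5469 and 3259 CPM in embryos. Embryo replicate 2 was highest for these RNAs, as it was for Lars2, and the counts were therefore repeated without that library. Then 55 of 59 tested C/D genes and 33 of 33 H/ACA genes were higher, with medians of 2.41 and 2.66. Of 17 tested host genes 15 rose, among them Snhg1, from 38.1, 37.3 and 37.2 to 279, 496 and 272 CPM (3.20, SE 0.23). Most of these RNAs lie in introns of host genes, and their reads cannot be told apart from unspliced host transcripts here.

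Replication-dependent histone genes rose in 46 of 52 tested cases and fell in 1, with a median log2 of 1.92. H3c11, shown above, went from 0.737, 0.729 and 0.599 to 36.5, 28 and 41.5 CPM (log2 5.65, SE 0.21). H2bc18, the most read of the H2B genes, rose from 243, 261 and 257 to 972, 976 and 799 CPM (1.83, SE 0.10). All 12 tested H4 genes rose, within a narrow range of 0.44 to 1.82, while the H2A genes ranged up to 6.30 (H2ac15, 0.119 to 9.77 CPM). Summed over genes, H3 stood at 700 to 777 CPM in oocytes and at 1773, 899 and 926 CPM in embryos, so that embryo replicate 1 was highest. Without that library 48 core histone genes rose and 2 fell. The 1 fall was that of H2ac1, a testis and oocyte variant, from 109 to 65.9 CPM (-0.75).

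Linker histones moved in opposite directions, with 3 of 9 tested genes higher and 3 lower (33.3% each, against 43.1% and 40.0% of all genes). H1f8, the oocyte form, fell from 2212, 2276 and 2103 to 58.4, 63.1 and 50.1 CPM (log2 -5.29, SE 0.12). H1f1 rose from 744, 846 and 819 to 2183, 1745 and 1303 CPM (1.10, SE 0.16) and H1f5 from 0.455 to 37.2 CPM (6.32, SE 0.26), while H1f0 did not pass, at 76.9 and 85.4 CPM. The groups did not overlap for H1f8, H1f1 or H1f5, and embryo replicate 1 was the highest for H1f1. The per-length level of H1f1 in embryos was 2340 RPKM, against 47.1 for H1f8. Histone variants and chaperones were near the shares of all tested genes, with 17 of 42 higher (40.5%) and 15 lower (35.7%). Among them H2az1 rose from 2.32 to 53.4 CPM (4.50), and Npm2, the oocyte nucleoplasmin that decondenses sperm chromatin, fell from 1102 to 160 CPM (-2.81). Daxx itself, the H3.3 chaperone under study, was lower in control embryos, from 97.2, 94.2 and 86.2 to 37.3, 35.2 and 46.7 CPM (-1.25, SE 0.12). The H3.3 genes H3f3a (38.9 and 36.3 CPM) and H3f3b (283 and 251 CPM) did not pass.

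Genes of DNA methylation lost most of their reads, although 10 of 24 tested fell (41.7%) and 9 rose (37.5%), near the shares of all tested genes. Their summed share went from 1.04% to 0.356% of the reads. Dnmt1, the maintenance methyltransferase, fell from 2258, 2197 and 2401 to 251, 288 and 292 CPM (log2 -3.07, SE 0.09). Its recruiter Uhrf1 fell from 818 to 131 CPM (-2.66), Tet3, the oxidase of the zygote, from 2805 to 798 CPM (-1.84), and Zfp57, which protects imprints, from 2905 to 617 CPM (-2.26). All 4 were abundant in every oocyte library and lower in every embryo library. Among the rises were Tet1 from 4.39 to 99.9 CPM (4.48) and Gadd45b from 0.178 to 67.6 CPM (8.49). Among heterochromatin and Polycomb genes 33 of 65 rose (50.8%, against 43.1% of all tested genes) and 21 fell (32.3%, against 40.0%). The rises were led by Mta2 of the NuRD complex, from 1.84, 1.68 and 1.69 to 475, 472 and 568 CPM (8.15, SE 0.13).

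**Figure D4:**
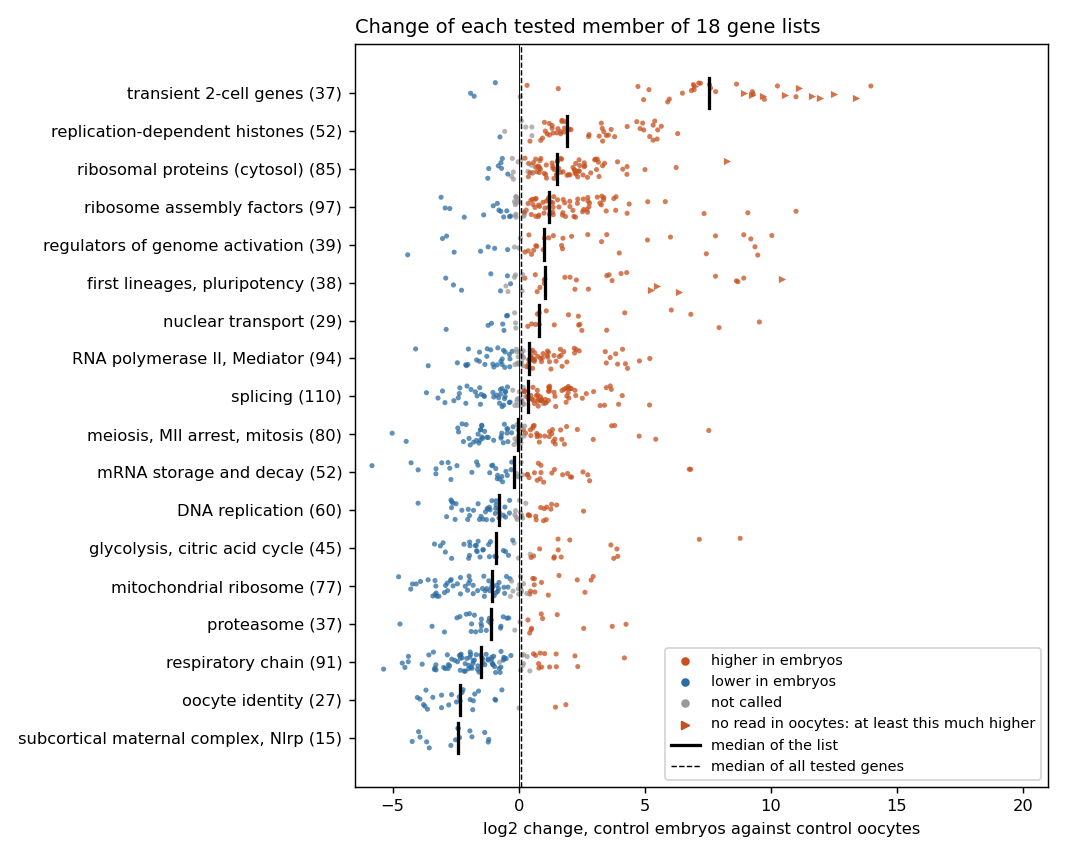
Log2 change of each tested member of 18 gene lists (points; orange higher, blue lower, grey not called), with the median of each list as a black bar and that of all tested genes, 0.07, as a dashed line; triangles mark genes without oocyte reads at their lower bound. Transient 2-cell genes lie far to the right, whereas subcortical complex, oocyte identity and respiratory chain genes lie to the left.

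Genes of the mitochondrion fell, and the proteasome with them. Of 91 tested genes of the respiratory chain encoded in the nucleus 70 fell and 13 rose, with a median log2 of -1.51. By complex, 34 of 38 tested subunits of complex I fell (summed level 723 to 263 CPM) and all 4 of complex II (252 to 43.9 CPM). Falls were also seen in 10 of 14 of complex IV (463 to 295 CPM, median log2 -0.86) and 10 of 17 of the ATP synthase (median -1.30). Ndufa8, a complex I subunit, fell from 39.9, 39.9 and 38.4 to 1.22, 1.04 and 0.695 CPM (log2 -5.36, SE 0.20), and Sdhd of complex II fell from 88.5 to 3.65 CPM (-4.62). Atp5b, the catalytic ATP synthase subunit, rose from 204, 209 and 203 to 394, 375 and 403 CPM (0.90, SE 0.08), and the summed level of the ATP synthase, which includes it, went from 874 to 760 CPM. The groups of these 3 genes did not overlap.

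The mitochondrial ribosome showed the reverse of the cytosolic one, with 52 of 77 tested genes lower and 13 higher (median log2 -1.08). Mrps31 fell from 37.6 to 1.41 CPM (-4.77). In the proteasome 25 of 37 tested genes fell and 10 rose (median -1.11), including all 6 ATPases of the regulatory cap (485 to 119 CPM). Psma7, a subunit of the core, fell from 211, 225 and 201 to 10.2, 7.21 and 7.34 CPM (-4.71, SE 0.15), while Psmd13 of the cap rose from 1.21 to 16.1 CPM (3.70). Of 40 tested aminoacyl-tRNA synthetases 21 fell (52.5%) and 11 rose (27.5%). Of 60 tested genes of DNA replication 37 fell (61.7%) and 14 rose (23.3%). Among these falls were 5 of the 6 helicase genes Mcm2 to Mcm7. Over all tested genes 40.0% fell and 43.1% rose.

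Energy and nucleotide metabolism changed at single steps. Of 45 tested glycolysis and citric acid cycle genes 27 fell (60.0%, against 40.0% of all tested genes) and 15 rose (33.3%, against 43.1%). Their median log2 was -0.89. The lactate dehydrogenase genes moved in opposite directions. Ldhb fell from 1441, 1402 and 1341 to 137, 228 and 166 CPM (-3.0, SE 0.16), and Ldha rose from 0.0614, 0.0503 and 0 to 18.3, 17.6 and 18.3 CPM (8.78, SE 0.34). So did the glucose transporters, Slc2a1 falling from 64.5 to 17 CPM (-1.95) and Slc2a3 rising from 0.219 to 31 CPM (7.16). In nucleotide synthesis 21 of 36 tested genes rose (58.3%, against 43.1% of all tested genes) and 13 fell (36.1%, against 40.0%). Prps1, which makes the ribose donor of purines, rose from 2.58, 2.39 and 2.29 to 607, 640 and 742 CPM (8.07, SE 0.13), and Ppat, the first committed purine enzyme, rose from 3.22 to 309 CPM (6.56).

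Signalling, contact and survival genes also went both ways. Frizzled receptors of Wnt rose in 8 of 9 tested cases, from a summed 94.8 to 558 CPM, led in level by Fzd7, from 26.2, 26.5 and 38.3 to 339, 370 and 387 CPM (log2 3.56, SE 0.15), while their effector Ctnnb1 fell from 503 to 199 CPM (-1.36). Epcam rose from 5.95 to 148 CPM (4.6) and Cldn6 from 0.0583 to 45.7 CPM (9.58), whereas Cdh1, the cadherin of compaction, fell from 548, 532 and 546 to 132, 98.5 and 120 CPM (-2.24, SE 0.11). Izumo1r, the sperm receptor Juno, fell from 186 to 18.1 CPM (-3.39). The groups of these 4 contact and binding genes did not overlap. In the apoptosis and p53 list 31 of 55 tested genes rose (56.4%, against 43.1% of all tested genes) and 19 fell (34.5%, against 40.0%), with a median of 0.87. Mcl1 rose from 8.19, 8.44 and 8.10 to 359, 325 and 353 CPM (5.36, SE 0.10), while Bcl2l10, the survival factor of oocytes, fell from 1901, 2063 and 1953 to 235, 293 and 190 CPM (-3.06, SE 0.15). Bag3, a co-chaperone, had 3 reads over the oocyte libraries and 137, 163 and 185 CPM in embryos, which is 6047 times as high (95% counting interval 2068 to 29325).

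Further lists were read against the shares over all genes, 43.1% higher and 40.0% lower. In nuclear transport 19 of 29 tested genes rose and 7 fell (median log2 0.81), among them Tnpo3, an importer of splicing factors, which rose from 4.19 to 481 CPM. In splicing 59 of 110 tested genes rose and 35 fell, in RNA polymerase II and Mediator 49 and 28 of 94, and in translation initiation 28 and 21 of 51. Heat shock proteins were near the shares of all genes, with 15 rises (48.4%) and 13 falls (41.9%) of 31. The heat shock cognate Hspa8 rose from 160, 143 and 164 to 349, 954 and 591 CPM, with embryo replicate 2 highest. Nuclear pores had 14 rises and 15 falls of 32, and imprinted genes 19 and 14 of 41, where Mest fell from 154 to 38.7 CPM. A list of the chaperonin CCT with further genes had 6 rises and 6 falls of 14. Among CCT subunits counted alone, however, 7 of 10 tested rose and 2 fell (median log2 0.96). Small RNA pathways had 18 falls and 11 rises of 32, Wnt and TGF-beta signalling as a whole 27 and 23 of 54, cell contacts 23 and 12 of 38, and interferon genes 14 and 11 of 27. In the last, the DNA sensor Cgas fell from 176 to 30.4 CPM, and Trim25, a ligase of RNA sensing, rose from 0.227 to 82.2 CPM.

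Pairs of an oocyte-type gene and a more general relative were compared within single functions. In 22 such pairs the oocyte-type gene fell in 19 and the general one rose in 11, with both events in 10. The general gene fell in 5. Over all tested genes 43.1% rose and 40.0% fell, so rises of the general genes were near the usual share. Levels within a pair were compared per length, in RPKM, and expressed as the share of the oocyte-type gene in the sum. That share was lower in all embryo libraries than in all oocyte libraries for 17 pairs and higher for 2, Cdc25b and the meiotic cohesin Rec8, which had no oocyte read and 0.431 CPM in embryos. The largest shift was that of the cytoplasmic poly(A) binding proteins, in which Pabpc1l went from 97.6% to 8.55% against Pabpc1. Pabpc1 itself rose from 14, 14.9 and 13.2 to 804, 666 and 784 CPM (log2 5.71, SE 0.11).

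The gap junction genes shifted from 100% Gja4 to 29.4%, since Gja4 fell from 362 to 11.3 CPM and Gja1 rose from 2 reads over the oocyte libraries to 49.9, 56.2 and 72.0 CPM (ratio 3344, counting interval 925 to 27624). Patl2 went from 58.1% to 6.45% against Patl1, and Lsm14b from 71.5% to 26.1% against Lsm14a, both being proteins of stored RNA particles. The linker histone H1f8 kept 55.9% against H1f0, after 98.2% in oocytes. In the importin pair Kpna7 and Kpna2 both genes fell, and the share of Kpna7 went from 79.5% to 55.1%, while Kpna1, outside the pairs, rose from 0.614, 0.528 and 0.443 to 436, 347 and 416 CPM (9.54, SE 0.16). Some oocyte-type genes stayed dominant, with Btg4 at 96.2% after 99.6% and Wee2 at 97.1% after 97.6%. The share of Cdc25b against Cdc25a was higher in embryos, at 53.6% after 47.4%, both genes having fallen.

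**Figure D5:**
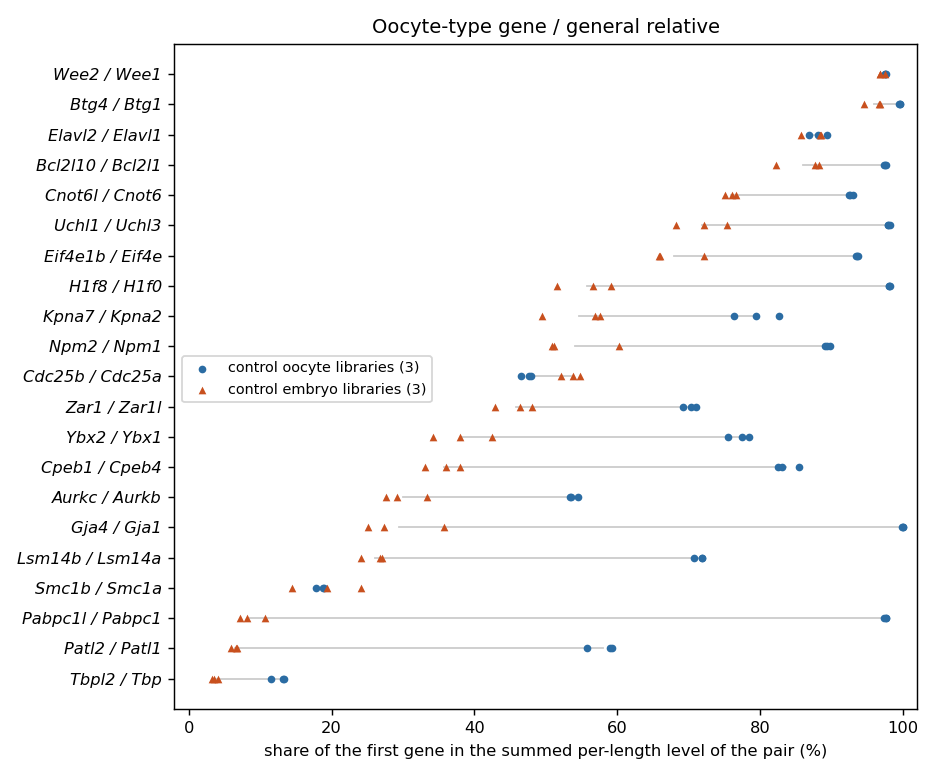
Share of the oocyte-type gene (named first) in the summed per-length level of each pair, in percent, in the 3 control oocyte libraries (circles) and 3 control embryo libraries (triangles); Rec8 and Rad21 are left out because Rec8 had no oocyte read. Most triangles lie left of the circles, with Pabpc1l, Patl2 and Gja4 furthest, whereas Wee2, Elavl2 and Smc1b overlap.

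Some genes changed little in their share of the reads. For 1449 genes (9.30% of those tested) the 95% interval of the change lay within 1.5-fold either way, and 383 of these nonetheless passed the test as small rises or falls. Among the 10 most abundant of these were Trim61, an oocyte gene of the tripartite motif family (1465, 1560 and 1486 CPM in oocytes, 1710, 1693 and 1476 CPM in embryos), the deubiquitinase Usp9x (1258 and 1492 CPM, though called higher in 4 alternatives) and Ankrd17 (1295 and 1361 CPM). For each of the 3 the oocyte and embryo libraries overlapped. Spin1, a reader of histone methylation, fell little, from 6127 to 4582 CPM (log2 -0.44, SE 0.10). Ccdc6 rose to one of the highest embryo levels, from 2282, 2290 and 2280 to 6617, 6675 and 6990 CPM (1.54, SE 0.08).

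Genes of the Y chromosome, which an unfertilised oocyte lacks, were read in embryos. The 39 Y genes of the table together held 6, 2 and 2 reads in the oocyte libraries and 1423, 992 and 1442 reads in the embryo libraries. Reads came from 8 genes, all tested and higher. Usp9y stood at 36.6, 22.5 and 26.0 CPM in embryos, Uty at 21, 12.8 and 19.8 CPM, Eif2s3y at 8.23, 8.57 and 7.77 CPM with no oocyte read (at least 301-fold higher) and Kdm5d at 4.78, 2.93 and 3.39 CPM with no oocyte read (at least 135-fold higher). Xist, the RNA of X inactivation, had no oocyte read and 1.61, 1.41 and 1.78 CPM in embryos, at least 59.6-fold higher.

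Changes were spread over the autosomes and the X chromosome, where the share of tested genes that rose at least 2-fold ranged from 26.9% on chromosome 6 to 39.1% on chromosome 11. Chromosome 6 also had the highest share of at least 2-fold falls, 37.6%, with a median log2 of -0.44. Runs of at least 5 neighbouring tested genes that all changed at least 4-fold one way numbered 45 for rises and 4 for falls. Rises of that size were also more common among single genes, 3618 against 2040 falls, and the runs were not tested. Some runs of rises hold a host gene with small nucleolar RNA genes, such as Snhg12, whose reads cannot be told apart here. The longest runs held 10 genes, one of them the Tdpoz cluster on chromosome 3 from 93068823 to 94332540 (GRCm38). H3c11 lay in a run of 7 histone genes on chromosome 13 from 21753377 to 21810199, and the 5 Zscan4 genes formed one on chromosome 7 from 10794241 to 11402318. Another held 6 class I histocompatibility genes on chromosome 17 from 35263094 to 35474563, in which H2-Q7 rose from 0, 0.0503 and 0.0521 to 32.5, 28.8 and 38.6 CPM (log2 9.66, SE 0.32). Of the 4 runs of falls 2 were Fbxw genes on chromosome 9, with 7 genes from 109139454 to 109449140 and 5 from 109552602 to 109790660.

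Gene structure differed between the classes in ways the comparison did not use. Single-exon genes made up 4.58% of the coding genes that rose at least 2-fold, 1.76% of those that fell at least 2-fold and 2.58% of all tested. Among genes that rose from no oocyte read they made up 8.04%. The median length of the 3′ untranslated region was 888 bases in the rises, near the 897 of all tested genes. It was 724 in the falls and 1048 in the remaining genes. These are descriptions without a test.

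Markers of the labelled cells and of other cells were examined. Oocyte genes were high in oocytes and transient 2-cell genes high in embryos, as given above. Of 25 markers of granulosa and cumulus cells 12 were tested. Of these 5 rose (41.7%, against 43.1% of all genes) and 6 fell (50.0%, against 40.0%). The list took 0.018% of the oocyte reads and 0.010% of the embryo reads. Fst had no read at all, and Foxl2, Ptx3 and Ereg had none in oocytes. Other members were read: Esr2, an estrogen receptor, fell from 125, 124 and 121 to 26.9, 26.6 and 30.4 CPM (log2 -2.17), and Cyp19a1, the aromatase, from 19 to 3.83 CPM (-2.34). Amhr2, a receptor of this cell type, rose from 3 oocyte reads in all to 44.6 CPM, which is 1667 times as high (counting interval 570 to 8088). Of 22 spermatid markers 11 were tested, with 7 higher (63.6%, against 43.1% of all genes) and 2 lower, and their summed level was 206 to 214 CPM in oocytes and 251 to 269 CPM in embryos. Most of that sum was Odf2 (199 to 239 CPM, log2 0.24). Oaz3 rose from 1.61 to 9.36 CPM (2.51), while Prm2 fell from 1.85 to 0.510 CPM (-1.85), and Prm1, Tnp1 and Tnp2 had no read in oocytes and under 1 CPM in embryos. Of blood markers 3 were tested, with 2 higher. Whether RNA of such cells has a part in these few changes was not tested.

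The libraries from knockout females, which share no library with the control comparison, give a second measure, as a description. It is the difference of mean log2 CPM after a prior count of 2 was added, which shrinks changes at low counts. The control changes come from the edgeR fit, so the sizes are not measured alike. Of the 6708 genes higher in control embryos 99.6% were higher in knockout embryos than in knockout oocytes, and for 96.5% the knockout groups did not overlap in that direction, against 45.3% of all tested genes. Of the 6231 lower genes 99.4% were lower, and 96.0% did not overlap, against 42.5%. The median log2 change was 2.24 in controls and 2.07 in knockouts for the rises, and -1.51 and -1.41 for the falls. Because the measures differ, these medians do not show whether the change was smaller in knockouts.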

How the data were processed

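The authors sequenced total RNA with a low-input kit (SoLo RNA-Seq, per the labels' protocols) and deposited a table of raw read counts per Entrez gene for 11 libraries. Per the submitters' processing notes, STAR 2.5.0a, SAMtools and GRCm38 were used. Counting details (program, strand, shared reads) were not given in the sources used here. This leaves genes that overlap, lie antisense or have near-identical copies uncertain. Total RNA libraries also hold unspliced RNA.

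Of 24421 identifiers, 24387 were matched to RefSeq (GRCm38.p6), and the other 34 held at most 0.0325% of a library's reads. Genes were filtered with filterByExpr (count minimum 10, total minimum 15), scaled by TMM and tested with edgeR's robust quasi-likelihood test (edgeR 4.0.16, R 4.3.3) in the 6 control libraries, with Benjamini-Hochberg adjustment over the 15577 genes left. Alternatives used DESeq2 1.42.0 and limma 3.58.1. In simulated counts with 15292 genes tested, 64 genes were changed 1.5-fold, 69 genes 2-fold and 67 genes 4-fold. These changes were found in 29.7%, 65.2% and 92.5% of cases, and 8.70% of calls were false. A far larger part of the genes changed in the data, so these rates need not hold for it. Replicates were checked pairwise: chi-square per degree of freedom was 5.10 to 37.2, so none is a copy of another. A count of 0 allows up to 3 reads, or 0.0754 to 0.0921 CPM in an oocyte library and 0.130 to 0.167 CPM in an embryo library, which are shallower. The counting intervals of ratios and the floors cover counting error only. The intervals of log2 changes also include the spread between pools. Per-length levels (RPKM) use the gene width given in the deposited table. Folds of genes without oocyte reads use 3 reads over the group.

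Named genes include the 15 largest rises and falls from 10 CPM, among called genes whose groups did not overlap. Predicted genes, pseudogenes and small RNAs were left out of these. The rule also takes the highest per-length levels, up to 4 members of each of 37 lists by p, and all members of 22 pairs. It further takes the 10 most abundant genes with an interval within 1.5-fold, the highest genes absent from 1 stage, and Daxx. Other named genes, the families and the neighbour runs were chosen after their values were seen. Members and lists were chosen with earlier results of these data known. Promoters were searched for 14 motifs on both strands. Shares of promoters are given only for lists of which at least 80% of members had one.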

Additional observations from a re-analysis of the deposited data

How the results depend on the processing

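The counts of genes higher (6708) and lower (6231) stayed within 1.5 times in every alternative run. Rises ranged from 5999 with a filter of 1 CPM in 3 libraries to 7901 with no low-count filter, and falls from 5809 to 6529. Leaving out 1 library at a time gave 6546 to 6932 rises and 5934 to 6269 falls, and at 2-fold 5207 to 5442 and 4386 to 4556. Of the 12939 calls, 11833 were kept the same way without each library in turn, 12502 with DESeq2 and 12908 with limma-voom. A test against a 2-fold change (glmTreat) left 4605 rises and 3696 falls. With the replicate number as a block there were 6587 rises and 6177 falls, and 5090 and 4435 at 2-fold. Same-numbered oocyte and embryo libraries deviated with correlations of 0.044, -0.037 and 0.005 over 7940 genes, so the numbers do not pair the samples.

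RLE size factors moved the median log2 of all genes from 0.07 to 0.17, and by this scaling Usp9x (0.32) was called higher, as it was with DESeq2 (0.32), library totals alone (0.25) and without embryo replicate 3 (0.31). Of 219 called named genes 216 were called in every alternative, and 0 of the 237 tested reversed. Of the 3 that lost a call, Lars2 did so with the replicate block (2.37) and Patl1, a general gene of the pairs, without oocyte replicate 1 (0.30) or 2 (0.29). Spry4, the third, did so with no low-count filter (0.20), with the replicate block (0.22) and without embryo replicate 2 (0.15). It also lost the call without oocyte replicate 1 (0.20), 2 (0.19) or 3 (0.23). Besides Usp9x, H1f0 was called higher with DESeq2 (0.22), and Lsm14a with RLE size factors or DESeq2 (0.19 each). Of 74 list counts 70 stayed within 1.5 times; the others were the falls among core histones, 2 in place of 1 in limma-voom, with all 11 libraries in 1 fit, with the replicate block and without embryo replicate 1, and the counts of spermatid and blood markers. Changes under 2-fold are the ones that depth and 3 pools a group limit most.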
